A study of Homo sapiens with 28 samples.

Results

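The genes described are 10 enzymes that make, interconvert or inactivate steroid hormones, chosen by name from the 63139 genes of a count table of HepG2 cells. They are CYP19A1 (aromatase), HSD17B1, HSD17B2, HSD17B6 and HSD17B8 (hydroxysteroid dehydrogenases), SRD5A1, SRD5A2 and SRD5A3 (steroid reductase family), STS (steroid sulfatase) and HSD11B2 (the cortisol-oxidising dehydrogenase). HepG2 is an established human liver cancer line. Messenger RNA was sequenced from 28 libraries in 7 groups of 4. TCDD (a dioxin, 100 nM), PFOS (a perfluorinated surfactant, 10 µM), BPA (bisphenol A, 75 µM) and TBTCl (tributyltin chloride, 0.1 µM) were each set against DMSO, whose content stayed at or below 0.1% of the medium, and CdCl2 (cadmium chloride, 0.5 µM) was set against H2O. In every group, vehicles included, cells had gone 24 h without serum and were then exposed for 24 h. The series text records that the names of the TCDD and PFOS libraries were exchanged after deposit, and the corrected names are used here.

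Steroid hormones act at low concentration, so the amount in a cell depends on enzymes that activate and inactivate them. Aromatase turns androgens into estrogens. HSD17B1 reduces estrone to the more potent estradiol, and HSD17B2 runs the reaction the other way and also oxidises testosterone. The reductases SRD5A1 and SRD5A2 turn testosterone into the stronger androgen dihydrotestosterone, STS frees steroids from their sulfated storage forms, and HSD11B2 converts cortisol to inactive cortisone. The liver is a main site of steroid breakdown and conjugation, and adult liver normally holds little aromatase.

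A library held between 28.9 M and 66.0 M counts (median 46.5 M). Levels are given in CPM, counts scaled to library size with TMM factors, and 3 counts came to 0.0454 to 0.104 CPM. All 9 hepatocyte markers were present in every group. Of 10 markers of other cells, PTPRC (leukocytes), COL1A2 and DCN (stroma) stayed at 3 counts or fewer in each library, and CD68 (macrophages) had 0 to 12 counts. Other stromal and endothelial markers were expressed, with ACTA2 at 38.7, PDGFRB at 15.0, PECAM1 at 5.34, COL1A1 at 2.10 and VWF at 0.603 CPM in DMSO libraries, and LUM was above 5 counts in TCDD libraries alone. CYP1A1, the classic dioxin-induced gene, averaged 4613 ± 1486 CPM in TCDD libraries and 242 ± 176 CPM in BPA libraries, against 8.37 ± 6.54 CPM in DMSO libraries. MT1M, a metallothionein, averaged 26.0 ± 13.0 CPM in CdCl2 libraries and 0.445 ± 0.834 CPM in H2O libraries (SD, n = 4 each here and below). TBTCl replicate 4 stood apart from the other libraries, at 101 on the third principal component where the next highest library lay at 32.3, and results that rest on it are given with and without it.

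Of the 10 genes, 9 were expressed above the detection floor in all 28 libraries and were tested, and SRD5A2 was near the floor. SRD5A2 had 0 to 5 counts with a median of 1, was at 3 counts or fewer in 25 of 28 libraries and at 0 in 8 of them. Its highest library was BPA replicate 2 with 5 counts, and among PFOS libraries a single count was found in replicate 3 and none in the other 3. No difference between groups could be read at that depth. HSD17B6 came next, with 12 to 114 counts and a median of 46, followed by SRD5A3 with 39 to 123 counts and HSD17B1 with 47 to 210 counts.

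Levels of different genes were compared per length, as CPM per kb of merged exons, in DMSO libraries. HSD17B8 was highest at 6.78 CPM per kb, followed by HSD17B2 at 2.84, SRD5A1 at 1.76, CYP19A1 at 1.66, STS at 1.40 and HSD11B2 at 1.25 CPM per kb. HSD17B6 at 0.575, HSD17B1 at 0.476 and SRD5A3 at 0.290 CPM per kb were lower, and SRD5A2 lay far below them at 0.00583 CPM per kb. HSD17B2, which oxidises estradiol, had more mRNA than HSD17B1, which makes it, per length and in CPM (27.2 against 2.69). mRNA levels do not give enzyme activity, and HSD17B1 counts are uncertain because exons of a gene on the opposite strand overlap it. Merged exons of all annotated transcripts came to 9550 bases for HSD17B2, 5658 for HSD17B1 and 1171 for HSD17B8, so the order depends on that length. In CPM, HSD17B8 at 7.94 lay below HSD17B2, CYP19A1 at 14.0, SRD5A1 at 13.6 and STS at 9.10. In TCDD libraries HSD17B2 at 10.6 and CYP19A1 at 8.55 CPM per kb stood beside HSD17B8 at 9.30 CPM per kb. In BPA libraries the same 3 genes were highest, with HSD17B8 at 11.9, CYP19A1 at 7.32 and HSD17B2 at 5.35 CPM per kb.

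**Figure D1:**
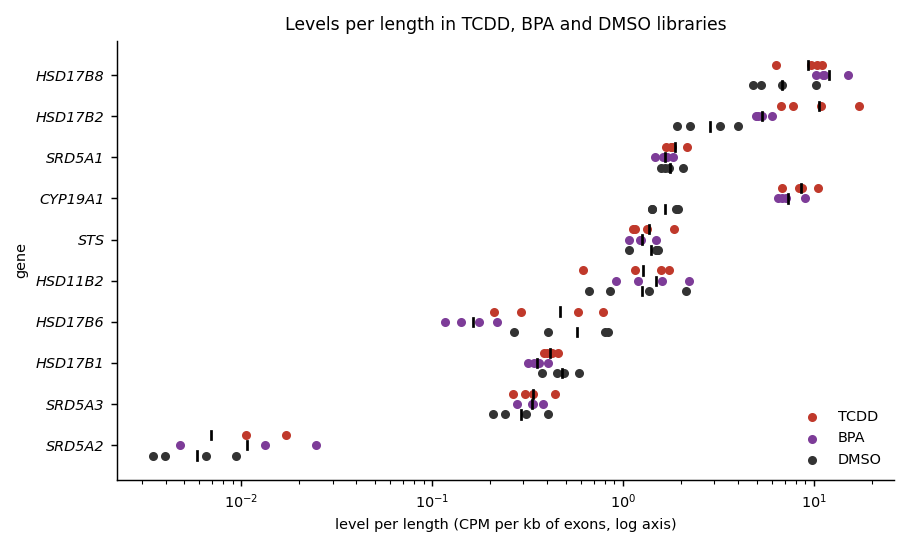
Level of each of the 10 genes per length (CPM per kb of merged exons, log axis) in the 4 TCDD, 4 BPA and 4 DMSO libraries; points are libraries and black ticks are group means, and libraries with 0 counts of SRD5A2 are not drawn. CYP19A1 and HSD17B2 lie further right in TCDD and BPA than in DMSO, and SRD5A2 lies apart at the left in every group.

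Across the 5 compounds, 4 of the 9 tested genes were called in the main fit, which is not blocked by replicate number. These calls came with TCDD, with BPA or with both. A change was called at an edgeR quasi-likelihood p, Benjamini-Hochberg adjusted over 18849 genes, under 0.05. TCDD raised 2 of the 9 genes, CYP19A1 and HSD17B2, and lowered none, where 6.45% of all tested genes rose and 2.80% fell, 9.25% together. BPA raised CYP19A1, HSD17B2 and HSD17B8 and lowered HSD17B6, which made 4 of 9, where 17.3% of all tested genes rose and 17.6% fell, 35.0% together. That share for BPA was close to the background of a compound that moved a large part of the transcriptome. CdCl2, PFOS and TBTCl called 0 of 9 in the main fit, where 0.0212%, 0.0159% and 0.143% of all genes were called. In a fit blocked by replicate number TBTCl called 1 of 9, HSD17B2 (edgeR, adjusted p = 0.0332), where 0.950% of all genes were called. With that block CdCl2 and PFOS called 0 of 9, where 0.149% and 0.446% of all genes were called. The median log2 fold change of the 9 genes was 0.08 with TCDD, 0.19 with BPA, 0.24 with TBTCl, 0.10 with PFOS and 0.12 with CdCl2, beside medians over all tested genes of -0.01, -0.02, 0.01, 0.02 and 0.00. Without TBTCl replicate 4 the median of the 9 genes with TBTCl was 0.07. TCDD, PFOS, BPA and TBTCl share their 4 DMSO libraries, so their changes are not independent of each other.

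**Figure D2:**
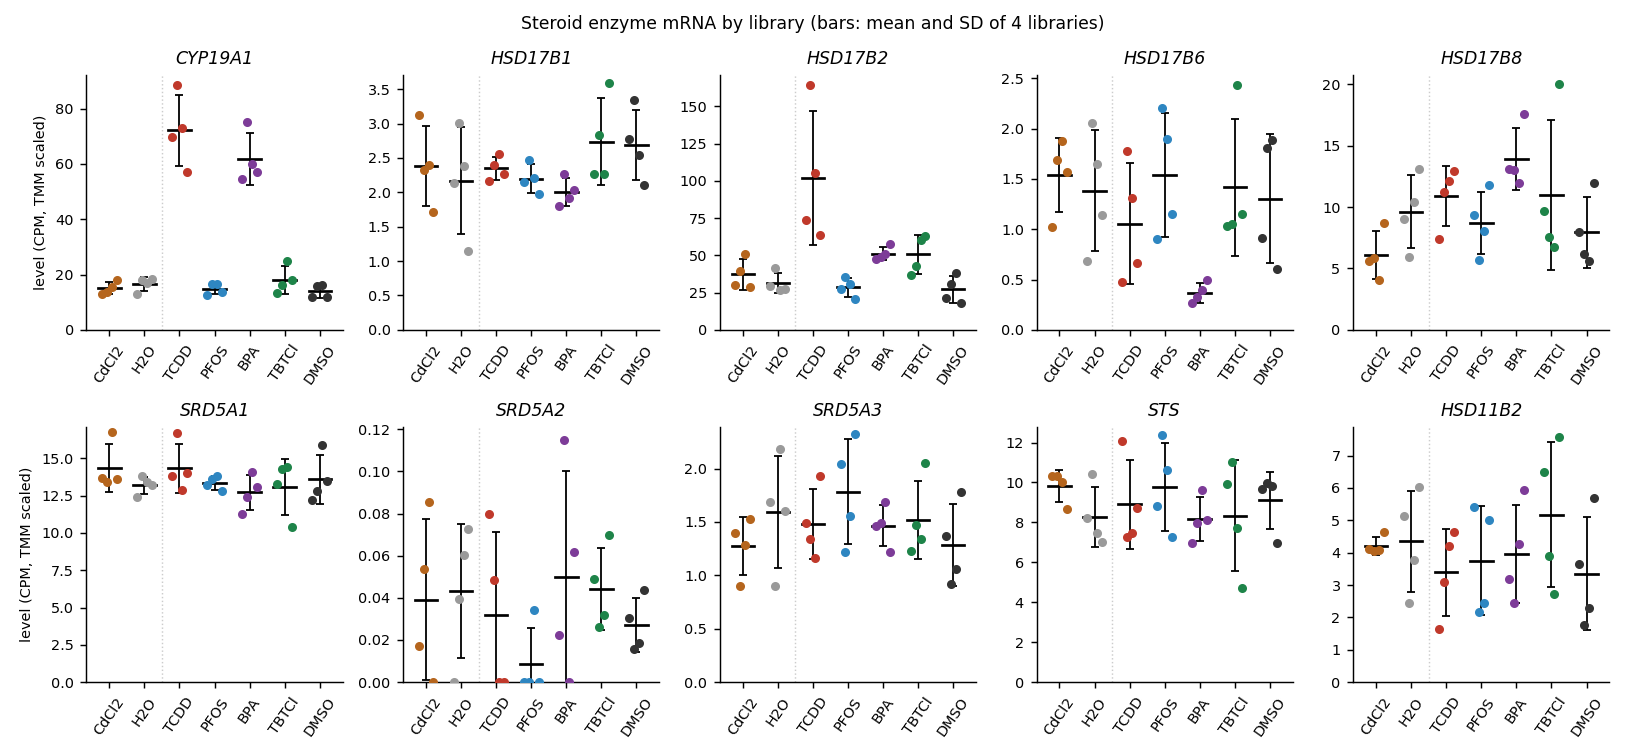
Level (CPM, TMM scaled) of each of the 10 genes in every library; points are libraries, bars are the mean and SD of 4, and each compound stands left of its vehicle. The 4 TCDD and 4 BPA libraries lie above all DMSO libraries for CYP19A1 and HSD17B2, and the 4 BPA libraries lie below all DMSO libraries for HSD17B6.

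**Figure D3:**
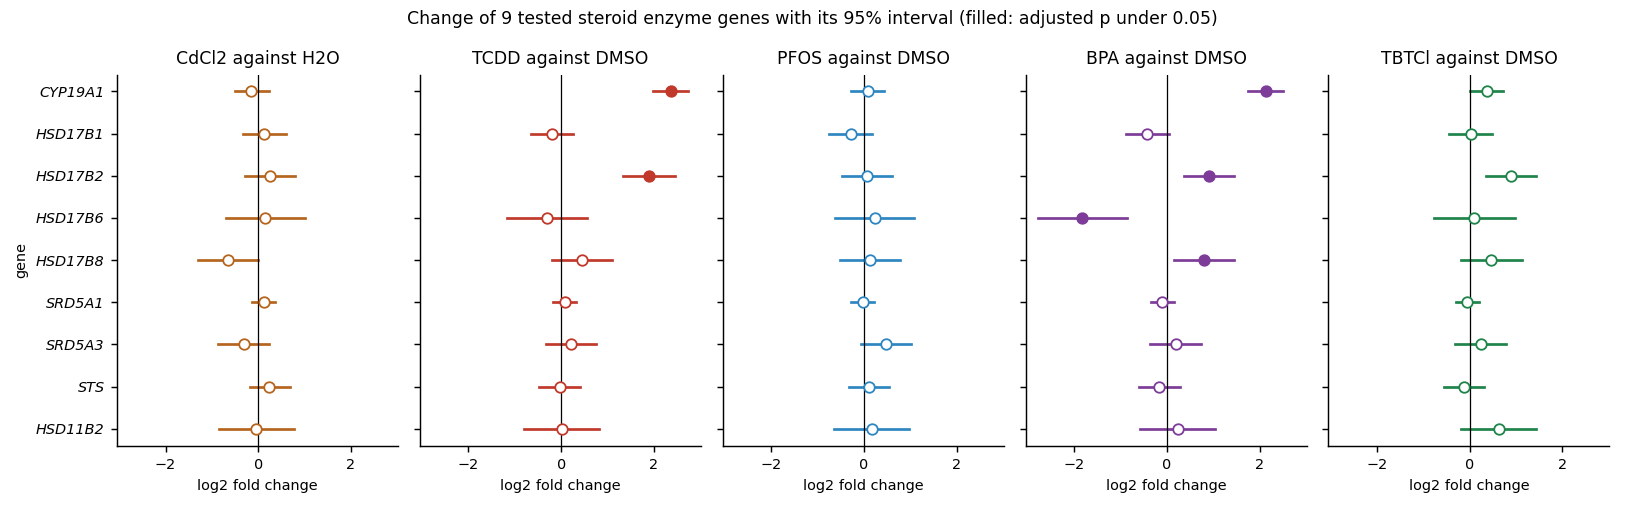
Log2 fold change of the 9 tested genes for each compound against its vehicle, with the 95% interval; filled points have an adjusted p under 0.05. Filled points appear in the TCDD panel (2 genes) and in the BPA panel (4 genes).

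CYP19A1, the sole aromatase gene, lies on chromosome 15 from 51208057 to 51338610 on the minus strand (GRCh38, GENCODE 29) and is known for alternative first exons that different tissues use. RefSeq holds 7 start windows for it (GRCh38.p14, 250 bases before to 50 after a start). The most upstream and the most downstream of them are shown because CYP19A1 had the largest rise with TCDD among the 9 tested genes. Windows of HSD17B8 and SRD5A1 are shown beside them. TCDD acts through the aryl hydrocarbon receptor, whose response element has the core GCGTG, and capitals mark that core on either strand (GCGTG or CACGC).
CYP19A1 window 1, chr15:51318448-51318747, minus strand: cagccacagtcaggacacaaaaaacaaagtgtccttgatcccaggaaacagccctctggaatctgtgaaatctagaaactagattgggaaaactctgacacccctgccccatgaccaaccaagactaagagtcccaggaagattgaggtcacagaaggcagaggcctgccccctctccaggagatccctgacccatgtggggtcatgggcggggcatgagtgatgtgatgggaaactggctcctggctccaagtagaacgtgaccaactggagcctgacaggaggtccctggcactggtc
CYP19A1 window 7, chr15:51242980-51243279, minus strand: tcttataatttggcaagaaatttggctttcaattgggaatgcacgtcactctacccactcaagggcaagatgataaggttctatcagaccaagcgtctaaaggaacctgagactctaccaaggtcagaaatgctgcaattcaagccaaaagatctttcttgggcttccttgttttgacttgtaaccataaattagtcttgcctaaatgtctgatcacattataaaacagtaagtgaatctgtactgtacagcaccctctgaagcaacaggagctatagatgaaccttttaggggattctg
HSD17B8, chr6:33204405-33204704, plus strand: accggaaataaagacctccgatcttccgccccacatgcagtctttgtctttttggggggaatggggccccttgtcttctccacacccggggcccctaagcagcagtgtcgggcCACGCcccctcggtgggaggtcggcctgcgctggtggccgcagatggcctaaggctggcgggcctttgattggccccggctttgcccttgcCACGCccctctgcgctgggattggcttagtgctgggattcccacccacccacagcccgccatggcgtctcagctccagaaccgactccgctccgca
SRD5A1, chr5:6633190-6633489, plus strand: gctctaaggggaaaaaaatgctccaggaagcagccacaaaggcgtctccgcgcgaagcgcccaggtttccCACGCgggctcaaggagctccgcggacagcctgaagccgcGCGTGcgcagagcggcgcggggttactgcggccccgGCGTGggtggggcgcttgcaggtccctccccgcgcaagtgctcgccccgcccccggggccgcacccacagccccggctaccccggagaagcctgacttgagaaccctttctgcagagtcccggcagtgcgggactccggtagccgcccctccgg
None of the 7 CYP19A1 windows held the core. The HSD17B8 window held 2 copies and the SRD5A1 window 3, and 36.5% of 35116 RefSeq windows of this length held at least 1. GENCODE 29 gives 16 transcript starts for CYP19A1, and sequence outside the windows was not searched. No window was at hand for HSD17B2, the other gene raised by TCDD. Whether the receptor acts on either gene was not tested. Windows were at hand for 6 of the 10 genes, 16 in all, with 5 for STS and 1 each for HSD17B8, SRD5A1, SRD5A2 and SRD5A3. Of the STS windows, 2 held 1 copy of GCGTG each, and the SRD5A2 and SRD5A3 windows held none. TGACNNNGC, the core of the antioxidant response element, occurred once in the SRD5A3 window and once in an STS window, against 13.3% of all windows. The palindromic estrogen response element occurred in none of the 16, against 0.0570% of all windows. A match in letters is a description of the window and not a binding site, and which start HepG2 cells used was not measured.

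CYP19A1 had 69.9, 88.5, 73.0 and 57.1 CPM in TCDD libraries, against 12.0, 15.9, 16.3 and 12.0 CPM in DMSO libraries (replicates 1 to 4). Every TCDD library lay above every DMSO library. The gene rose 5.14-fold with TCDD (log2 fold change 2.36 ± 0.18, SE; adjusted p = 5.49e-10). In BPA libraries it had 54.6, 75.3, 60.0 and 57.2 CPM, again with no overlap with DMSO, and rose 4.40-fold (2.14 ± 0.18, adjusted p = 3.84e-09). Without any single library the log2 fold change stayed between 2.25 and 2.44 for TCDD and between 2.03 and 2.22 for BPA. In bulk RNA, more cells expressing a gene and more mRNA per cell cannot be told apart.

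Compounds that share DMSO were also compared directly, over all genes, where 38.3% of them were called for TCDD against BPA, 13.0% for TCDD against PFOS, 12.8% for TCDD against TBTCl, 30.6% for PFOS against BPA and 34.8% for BPA against TBTCl. The change with CdCl2 was set against that with TCDD (4.06% of genes called) and BPA (16.5%). For CYP19A1, TCDD minus BPA gave a log2 difference of 0.22 with a 95% interval from -0.14 to 0.58 (adjusted p = 0.319). No difference was detected, and the data allow any within that interval. Against PFOS the log2 difference was 2.28 for TCDD (adjusted p = 7.74e-10), and PFOS minus BPA gave -2.06 (adjusted p = 6.82e-09). Against TBTCl it was 1.99 for TCDD (adjusted p = 6.93e-09) and 1.77 for BPA (adjusted p = 7.22e-08), or 1.98 and 1.77 without TBTCl replicate 4. The changes also exceeded that of CdCl2 against its own vehicle, by 2.51 for TCDD (adjusted p = 2.35e-07) and by 2.28 for BPA (adjusted p = 1.30e-06).

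The remaining groups held CYP19A1 near its DMSO level. TBTCl libraries had 13.2, 16.2, 25.0 and 18.0 CPM, with a log2 fold change of 0.37 ± 0.18 (unadjusted p = 0.0466, adjusted p = 0.312), and replicate 3 stood highest. PFOS libraries had 12.6, 16.4, 16.4 and 13.8 CPM, which overlapped DMSO fully. CdCl2 libraries had 13.0, 13.7, 15.4 and 17.9 CPM, against 12.8, 17.9, 17.1 and 18.4 CPM in H2O libraries. In the order of group means, TCDD at 72.1 and BPA at 61.8 CPM overlapped, BPA stood clear of TBTCl at 18.1 CPM, and H2O, CdCl2, PFOS and DMSO followed at 16.6, 15.0, 14.8 and 14.0 CPM with overlapping neighbours. MIR4713HG, a noncoding gene on the opposite strand whose exons overlap CYP19A1, held 10 to 43 counts per library, and its change was -0.16 with TCDD (adjusted p = 0.814). The genes with the pattern most like CYP19A1 were PXDC1, AP1AR and ABCA5, with a Pearson r of log2 CPM of 0.96, 0.94 and 0.94 over 28 libraries that share the TCDD and BPA exposures, and of 0.98, 0.96 and 0.96 over the 7 group means.

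HSD17B2, which oxidises estradiol to estrone and testosterone to androstenedione, lies on chromosome 16 from 82035004 to 82098534. TCDD libraries had 74.0, 164, 105 and 63.7 CPM, against 21.5, 30.7, 38.3 and 18.2 CPM in DMSO libraries. All TCDD libraries were above all DMSO libraries, and TCDD replicate 2 was the highest of the 28. The gene rose 3.74-fold (log2 fold change 1.90 ± 0.27, adjusted p = 1.20e-05), or by a log2 of 1.57 without TCDD replicate 2 (adjusted p = 8.74e-05).

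BPA raised HSD17B2 less than TCDD did. BPA libraries had 47.4, 48.7, 50.9 and 57.5 CPM, which were tightly grouped and all above DMSO, and the log2 fold change was 0.91 ± 0.26 (adjusted p = 0.00918). TCDD minus BPA was 0.99 with a 95% interval from 0.44 to 1.54 (adjusted p = 0.00419). TCDD exceeded TBTCl by 1.01 (adjusted p = 0.0109; 1.11 without TBTCl replicate 4) and PFOS by 1.83 (adjusted p = 2.10e-05) on the log2 scale, and its change exceeded that of CdCl2 by 1.64 (adjusted p = 0.00835). The BPA change was not distinguished from that of CdCl2, with a log2 difference of 0.65 and an interval from -0.12 to 1.42 (adjusted p = 0.236).

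With TBTCl, HSD17B2 had 36.6, 42.6, 60.2 and 63.0 CPM, of which replicate 1 overlapped the highest DMSO library. Its log2 fold change of 0.90 ± 0.26 was close to that of BPA (BPA minus TBTCl 0.02, interval -0.53 to 0.56, or 0.14 without TBTCl replicate 4), and it did not pass over all genes (adjusted p = 0.130). In a fit blocked by replicate number, which pairs these libraries, the log2 fold change was 0.95 and passed (adjusted p = 0.0332). It was 0.77 without TBTCl replicate 4 in the fit without the block (adjusted p = 0.480), and adjusted p ran from 0.0705 to 0.480 as each library was left out. PFOS libraries had 27.1, 35.2, 31.0 and 20.7 CPM, and CdCl2 libraries had 29.9, 39.7, 51.1 and 28.8 CPM, against 29.2, 41.2, 26.7 and 27.7 CPM in H2O libraries. Both compounds overlapped their vehicles.

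HSD17B2-AS1, on the opposite strand with overlapping exons, held 1 to 69 counts per library and averaged 0.916 ± 0.556 CPM in TCDD libraries and 0.346 ± 0.129 CPM in DMSO libraries (log2 fold change 1.40, adjusted p = 0.0785). The libraries were made with a directional kit, but no source used here names the strand option with which reads were counted. Over 28 libraries, AZGP1, CYTH1 and AMBP were most like HSD17B2, with r of 0.90, 0.89 and 0.88, and of 0.94, 0.98 and 0.95 over the 7 group means.

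**Figure D4:**
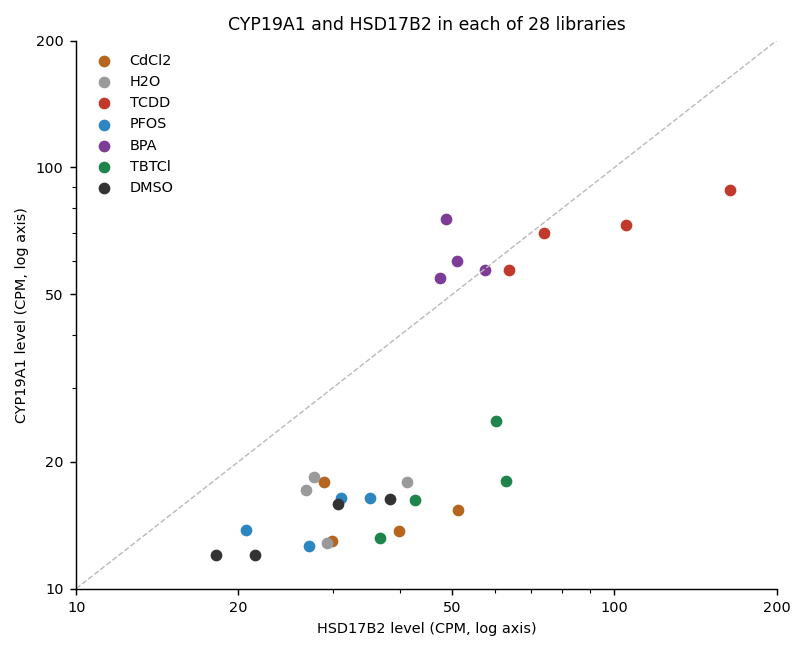
CYP19A1 against HSD17B2 level (CPM, log axes) in each of the 28 libraries; the dashed line marks equal CPM. The BPA libraries lie at or above the line, the TCDD libraries lie further right and below it, and the TBTCl libraries lie right of 3 of the 4 DMSO libraries.

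Because aromatase makes estrogen and HSD17B2 lowers the active form, the ratio of their levels was taken within each library, with no test. The CYP19A1 to HSD17B2 ratio of CPM was 0.770 ± 0.187 in TCDD, 1.22 ± 0.234 in BPA, 0.361 ± 0.0551 in TBTCl and 0.540 ± 0.0966 in DMSO libraries. It ran from 0.995 to 1.55 in BPA libraries, above the range of 0.425 to 0.659 in DMSO libraries, and TBTCl libraries at 0.285 to 0.416 lay below that range. TCDD libraries, at 0.538 to 0.945, overlapped it. The same ratio was 0.532 ± 0.0959 in PFOS libraries, and 0.425 ± 0.142 in CdCl2 libraries against 0.545 ± 0.126 in H2O libraries. CdCl2 libraries, at 0.302 to 0.622, overlapped the TBTCl range. HSD17B1 counts are uncertain, since exons of HSD17B1-AS1 on the opposite strand overlap it, and so is any ratio to them. The HSD17B2 to HSD17B1 ratio was 42.9 ± 17.9 in TCDD, 25.6 ± 2.92 in BPA and 18.8 ± 5.22 in TBTCl libraries, against 10.2 ± 3.32 in DMSO libraries. It was 12.9 ± 1.73 in PFOS libraries, and 16.2 ± 4.91 in CdCl2 libraries against 15.7 ± 5.82 in H2O libraries. DMSO thus had the lowest mean of the 7 groups, and TBTCl libraries, at 15.0 to 26.5, overlapped H2O libraries, at 11.2 to 24.3. Without TBTCl replicate 4 the 2 ratios in TBTCl libraries were 0.386 ± 0.0272 for CYP19A1 to HSD17B2 and 19.3 ± 6.31 for HSD17B2 to HSD17B1 (SD, n = 3).

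HSD17B1, which makes estradiol, was low and was called in no comparison. Its level was 1.80 to 2.27 CPM in BPA libraries and 2.17 to 2.56 CPM in TCDD libraries, against 2.11 to 3.34 CPM in DMSO libraries, so the groups overlapped. The log2 fold change was -0.42 ± 0.22 with BPA (interval -0.88 to 0.04, adjusted p = 0.147) and -0.20 ± 0.22 with TCDD (adjusted p = 0.677). TBTCl libraries averaged 2.74 CPM, the highest of the 7 groups, but 2.45 CPM without replicate 4, below the 2.69 CPM of DMSO libraries. Neighbours in the order of the 7 groups all overlapped. HSD17B1-AS1 lies across it on the opposite strand with 925 to 3195 counts per library, far more than the gene itself. It averaged 60.6 ± 1.13 CPM in BPA libraries and 44.1 ± 7.68 CPM in DMSO libraries and rose (log2 fold change 0.46 ± 0.16, adjusted p = 0.0278, lost without DMSO replicate 1 or 4 or BPA replicate 2 or 3), so HSD17B1 counts are uncertain.

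HSD17B6, a dehydrogenase and epimerase that acts on the 3-hydroxyl group of androgen metabolites, fell with BPA. It lies on chromosome 12 from 56752161 to 56787790. BPA libraries had 0.266, 0.322, 0.397 and 0.496 CPM, from 12 to 24 counts each, against 0.914, 1.81, 1.89 and 0.608 CPM in DMSO libraries. Every BPA library lay below every DMSO library, although the DMSO libraries themselves were widely spread. HSD17B6 fell by 1.82 on the log2 scale (± 0.46, adjusted p = 0.00333), and the value stayed between -2.06 and -1.59 as each library was left out.

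HSD17B6 was also lower with BPA than with each of the other DMSO-based compounds, although TCDD replicate 1 at 0.477 CPM lay below BPA replicate 4 at 0.496 CPM. PFOS minus BPA was 2.04 (adjusted p = 0.00137), TCDD minus BPA 1.51 (adjusted p = 0.0115) and BPA minus TBTCl -1.92 (adjusted p = 0.00248, or 0.00348 without TBTCl replicate 4), and the BPA change differed from the CdCl2 change by -1.97 (adjusted p = 0.0291). TCDD libraries had 0.477, 1.78, 1.31 and 0.660 CPM, which overlapped DMSO, with a log2 fold change of -0.30 ± 0.42 (adjusted p = 0.745). PFOS libraries had 0.902, 2.21, 1.90 and 1.15 CPM and TBTCl libraries had 1.03, 1.05, 2.43 and 1.15 CPM, and both overlapped DMSO. CdCl2 libraries, with 1.02, 1.69, 1.88 and 1.57 CPM, overlapped the H2O libraries, with 0.680, 2.06, 1.65 and 1.14 CPM. The exons of PRIM1, a primase subunit, overlap HSD17B6 on the opposite strand, and PRIM1 averaged 5.62 ± 1.16 CPM in BPA libraries and 8.92 ± 3.72 CPM in DMSO libraries (log2 fold change -0.67 ± 0.30, adjusted p = 0.0905). Reads of these overlapping genes cannot be told apart where that option is unknown. The genes most like HSD17B6 were AFP, LINC02532 and ADGRV1, with r of 0.92, 0.90 and 0.89 over 28 libraries and of 0.99, 0.93 and 0.93 over the 7 group means.

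AFP is also a hepatocyte marker, and these markers moved with BPA. Of the 9 markers, FGB, AFP and TF fell and HNF4A rose, 4 of 9 beside 35.0% of all tested genes, and the TF call was lost without DMSO replicate 3, BPA replicate 1 or BPA replicate 2. For the 9 markers, the summed level was 26561 to 42188 CPM in BPA libraries, against 39307 to 72309 CPM in DMSO libraries. In TCDD libraries the sum was 35603 to 52719 CPM and no marker was called, beside 9.25% of all tested genes. Of 10 markers of other cells, of which 6 were tested, PECAM1 fell with BPA and PDGFRB fell with TCDD, where 17.6% and 2.80% of all tested genes fell. The PDGFRB call was lost without DMSO replicate 3 or 4 or TCDD replicate 1 or 4. LUM had 27 to 76 counts in TCDD libraries and 0 to 5 in all others, so it passed the filter on low counts through TCDD alone and its test is not given. The 10 markers summed to 42.4 to 51.6 CPM in BPA, 44.6 to 55.5 CPM in TCDD and 58.9 to 64.9 CPM in DMSO libraries. The part of these shifts in the changes of the steroid enzymes was not tested.

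HSD17B8, a mitochondrial enzyme that takes part in fatty acid synthesis and can oxidise estradiol, was called with BPA only narrowly. BPA libraries had 13.1, 13.0, 12.0 and 17.6 CPM, against 7.95, 6.19, 5.62 and 12.0 CPM in DMSO libraries, so the groups overlapped at 12.0 CPM. The log2 fold change was 0.81 ± 0.31 (adjusted p = 0.0450). The call was lost without any of 7 of the 8 libraries (adjusted p up to 0.132) and was kept without DMSO replicate 4 (1.09, adjusted p = 0.0146). It was also lost with upper-quartile scaling (0.68, adjusted p = 0.0924), with library size alone (0.68, adjusted p = 0.0798) and against the H2O libraries (0.54, adjusted p = 0.194). With the replicate block it held at 0.86 (adjusted p = 0.00135).

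HSD17B8 was the highest of its group in replicate 4 in all 7 groups, which is the spread that the block removes. TBTCl replicate 4 reached 20.0 CPM beside 9.71, 7.58 and 6.75 CPM in the other TBTCl libraries, and the TBTCl log2 fold change of 0.47 was 0.01 without it. CdCl2 libraries had 5.57, 5.89, 4.08 and 8.73 CPM, against 9.03, 5.92, 10.4 and 13.1 CPM in H2O libraries, with a log2 fold change of -0.66 ± 0.31 (unadjusted p = 0.0448, adjusted p = 0.898). The BPA change exceeded the CdCl2 change by 1.47 (adjusted p = 0.0238). TCDD libraries had 7.40, 11.2, 12.1 and 12.9 CPM and PFOS libraries had 9.33, 5.69, 8.05 and 11.8 CPM, and both overlapped DMSO. AGTRAP, UQCC3 and HDDC3 were most like HSD17B8, with r of 0.96, 0.95 and 0.95 over 28 libraries and of 0.98, 0.99 and 0.97 over the 7 group means.

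The steroid reductases were not called with any compound. SRD5A1 was the steadiest of the 10 genes, with 10.4 to 16.8 CPM over the 28 libraries and a highest group mean only 1.13 times the lowest. Its log2 fold change was 0.08 with TCDD (interval -0.17 to 0.32), -0.10 with BPA (-0.34 to 0.15), -0.05 with TBTCl (-0.30 to 0.20; 0.05 without TBTCl replicate 4), -0.03 with PFOS (-0.27 to 0.22) and 0.12 with CdCl2 (-0.13 to 0.36). Each of these intervals excludes a change of 2-fold. SRD5A3, which makes dolichol for protein glycosylation, had 1.22 to 2.32 CPM in PFOS libraries and 0.922 to 1.78 CPM in DMSO libraries, with a log2 fold change of 0.48 ± 0.26 (interval -0.07 to 1.02, unadjusted p = 0.0796, adjusted p = 1.000). SRD5A3 overlapped its vehicle in all groups, and SRD5A3-AS1 on the opposite strand held 3 to 17 counts per library.

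STS, which frees estrone and androgens from their sulfates, and HSD11B2, which inactivates cortisol, were likewise called in no comparison. STS had 6.96 to 9.63 CPM in BPA libraries and 7.29 to 12.1 CPM in TCDD libraries, against 6.97 to 9.97 CPM in DMSO libraries. Its log2 fold change was -0.16 with BPA (interval -0.60 to 0.28) and -0.03 with TCDD (-0.47 to 0.41). HSD11B2 varied more than STS within groups, with 2.72 to 7.59 CPM in TBTCl libraries, 2.44 to 5.93 CPM in BPA libraries and 1.65 to 4.65 CPM in TCDD libraries, against 1.77 to 5.69 CPM in DMSO libraries. Its largest log2 fold change was 0.63 ± 0.39 with TBTCl (interval -0.18 to 1.44, adjusted p = 0.438), or 0.39 without TBTCl replicate 4. That interval and the one with BPA (-0.57 to 1.05) do not exclude a 2-fold rise of HSD11B2. Its intervals with TCDD (-0.80 to 0.82), PFOS (-0.64 to 0.98) and CdCl2 (-0.84 to 0.76) exclude a change of 2-fold.

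With CdCl2 and PFOS none of the 9 tested genes stood clear of its vehicle. With CdCl2 the log2 fold changes ran from -0.66 (HSD17B8) to 0.26 (HSD17B2), and with PFOS from -0.29 (HSD17B1) to 0.48 (SRD5A3). At an unadjusted p under 0.05, 1 of 9 genes was found with CdCl2 (4.99% of all tested genes), 0 with PFOS (5.53%) and 2 with TBTCl (15.6%; 1 of 9, HSD17B2, without TBTCl replicate 4), and DESeq2 called 0 with each. DMSO against H2O called 0 of 9 genes, where edgeR called 0% of all genes and DESeq2 called 1 gene, and 431 genes (2.29%) had an unadjusted p under 0.05, none of them among the 9. The libraries of a compound and its vehicle did not overlap for 2 of 9 genes with TCDD (15.3% of all tested genes) and 3 of 9 with BPA (37.2%), and for 0 of 9 with CdCl2 (2.45%), PFOS (4.94%) and TBTCl (4.87%).

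Around these enzymes, 58 further genes of steroid metabolism were examined in 4 lists, of which 42 were tested. TCDD raised 8 and lowered 3 of the 42 (26.2%, beside 9.25% of all tested genes), and BPA raised 9 and lowered 12 (50.0%, beside 35.0%). TBTCl raised 1 (2.38%, beside 0.143%), and edgeR called 0 with CdCl2 (beside 0.0212%) and PFOS (beside 0.0159%). At an unadjusted edgeR p under 0.05, 7 of the 42 were found with CdCl2 (beside 4.99% of all tested genes) and 2 with PFOS (beside 5.53%). The median log2 fold change of the 42 was -0.01 with TCDD and 0.12 with BPA. SULT2B1, counted among the 8 raised by TCDD, passed the filter on low counts through TCDD alone. The 26.2% thus includes a gene whose test is not given and whose call is not read as a result. The lists were chosen with results known, and no list was tested as a whole.

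Steroidogenesis and its electron donors came first, with 11 of 15 genes tested. TCDD raised 2 and lowered 1 of the 11 (27.3%, beside 9.25% of all tested genes), and BPA raised 4 and lowered 2 (54.5%, beside 35.0%). POR, the reductase that feeds electrons to aromatase and other microsomal cytochromes, averaged 710.0 ± 37.4 CPM in TCDD and 844 ± 104 CPM in BPA, against 396 ± 35.6 CPM in DMSO libraries. It rose by 0.84 ± 0.12 with TCDD (adjusted p = 1.75e-05) and by 1.09 ± 0.12 with BPA (adjusted p = 2.88e-07) on the log2 scale. CYB5A, a cytochrome that aids several steroid-forming reactions, rose by 1.13 ± 0.11 with TCDD (adjusted p = 5.41e-08), by 0.96 ± 0.11 with BPA (adjusted p = 5.79e-07) and by 0.58 ± 0.11 with TBTCl (adjusted p = 0.0343). The TBTCl call was lost without any 1 of the DMSO libraries or without TBTCl replicate 4 (adjusted p up to 0.124), and the log2 fold change stayed between 0.48 and 0.63. POR and CYB5A thus changed in the same direction as CYP19A1 with TCDD and with BPA.

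STAR, which carries cholesterol into mitochondria, moved in opposite directions with the 2 compounds. It averaged 1.73 ± 0.403 CPM in TCDD and 9.90 ± 2.09 CPM in BPA, against 3.60 ± 0.784 CPM in DMSO libraries, with log2 fold changes of -1.05 ± 0.31 with TCDD (adjusted p = 0.0329) and 1.46 ± 0.31 with BPA (adjusted p = 0.000639). TCDD minus BPA was -2.51 (adjusted p = 1.01e-06). The TCDD call was kept without DMSO replicate 3 or TCDD replicate 4 and lost without any other of the 8 libraries (adjusted p up to 0.102), with a log2 fold change of -1.19 to -0.94. CYP11A1, the side-chain cleavage enzyme, rose by 1.06 ± 0.21 with BPA (adjusted p = 0.000427) to 2.10 ± 0.322 CPM, against 1.01 ± 0.171 CPM in DMSO libraries. FDXR and CYP17A1 were the 2 genes of the list that fell with BPA, and the CYP17A1 call was lost without DMSO replicate 2 or 3 or BPA replicate 1, 2 or 4. HSD3B1 and HSD3B2, which act between pregnenolone and the androgens, and the adrenal enzymes CYP11B1 and CYP11B2 stayed at 3 counts or fewer in every library.

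**Figure D5:**
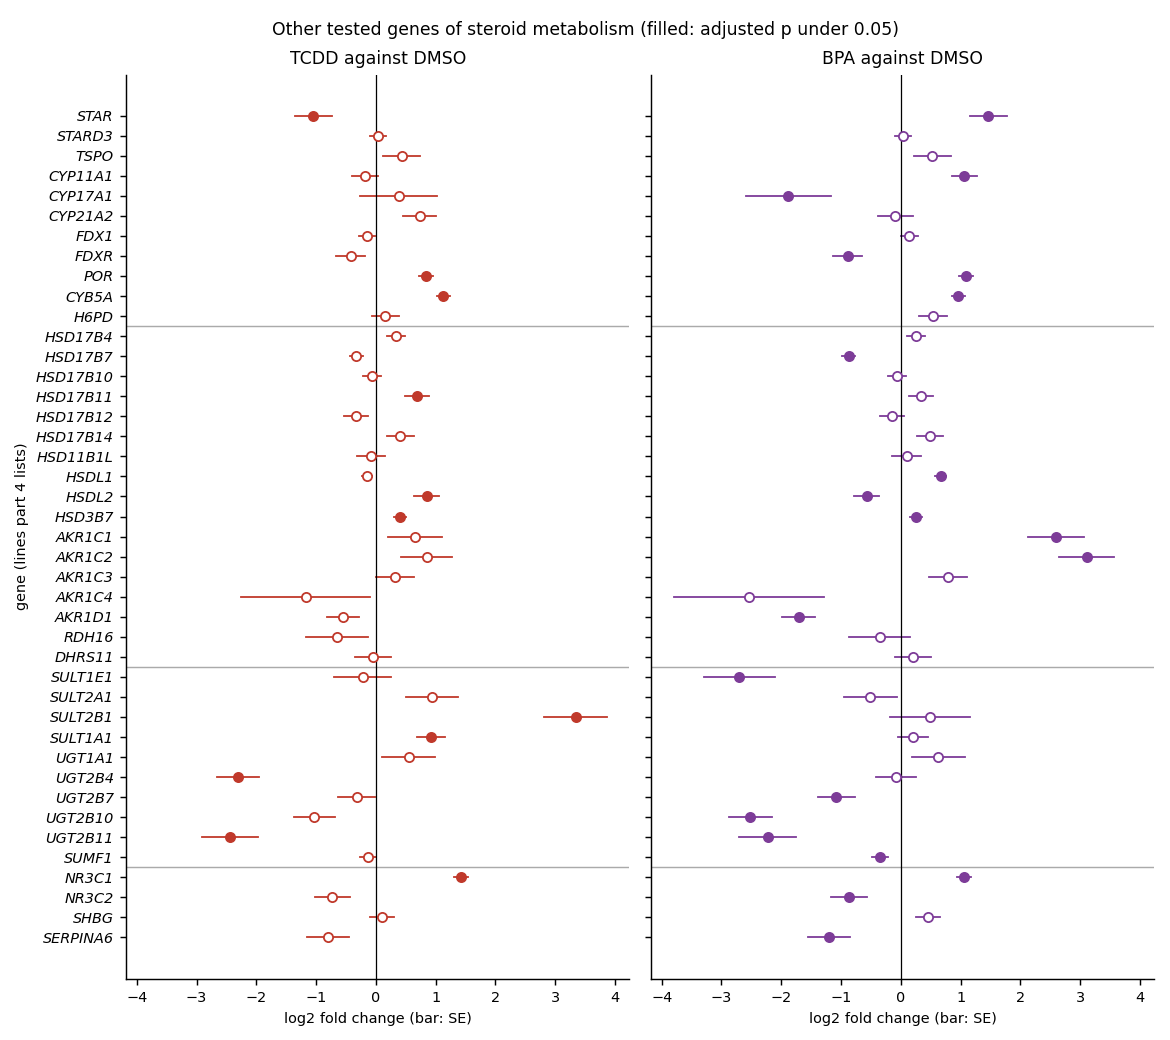
Log2 fold change (bar: SE) of the 42 tested genes in 4 lists of steroid metabolism with TCDD and with BPA against DMSO; filled points have an adjusted p under 0.05 and grey lines part the lists. STAR lies left of 0 with TCDD and right of 0 with BPA, while POR, CYB5A and NR3C1 lie right of 0 with both. SULT2B1, filled with TCDD, passed the filter on low counts through TCDD alone, so its point with TCDD is not to be read as a result.

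Among 17 tested of 21 other dehydrogenases and reductases, TCDD raised 3 (17.6%, beside 9.25% of all tested genes), and BPA raised 4 and lowered 3 (41.2%, near the 35.0% of all tested genes). With TCDD, HSDL2 rose by 0.85 ± 0.21 (adjusted p = 0.00694), HSD3B7, a bile acid enzyme, by 0.40 ± 0.10 (adjusted p = 0.00703) and HSD17B11 by 0.69 ± 0.20 (adjusted p = 0.0238, lost without DMSO replicate 1 or 4 or TCDD replicate 2 or 3). HSDL2 was lower with BPA (-0.57, adjusted p = 0.0317, lost without DMSO replicate 2 or 3 or BPA replicate 1 or 2), and TCDD minus BPA was 1.42 (adjusted p = 7.06e-06). With BPA, AKR1C2, which inactivates dihydrotestosterone, averaged 356 ± 148 CPM, against 41.3 ± 21.3 CPM in DMSO libraries (log2 fold change 3.11 ± 0.46, adjusted p = 1.38e-05). HSDL1 rose by 0.67 ± 0.09 (adjusted p = 3.02e-06), and HSD17B7, which acts in cholesterol synthesis, fell by 0.87 (± 0.11, adjusted p = 2.61e-06). AKR1D1, the liver enzyme that starts the breakdown of many steroid hormones, fell by 1.71 (± 0.28, adjusted p = 4.76e-05). AKR1C genes are near copies of each other, and the way their reads were divided is uncertain.

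The conjugation list, of sulfotransferases, glucuronosyltransferases and genes linked to steroid sulfates, had 10 of 14 genes tested. BPA lowered 5 of the 10 and raised 0 (also 0 at an unadjusted p under 0.05, edgeR), beside 17.6% of all tested genes lowered and 17.3% raised. TCDD raised 2, with SULT2B1 counted among them, and lowered 2, beside 6.45% raised and 2.80% lowered of all tested genes. Of the 5 genes that fell with BPA, 4 belong to the sulfotransferase and glucuronosyltransferase families, and their activity on steroids was not measured. SUMF1, which activates sulfatases such as STS and does not conjugate steroids, was the other (-0.35 ± 0.13, adjusted p = 0.0326), a call lost without DMSO replicate 2 or 3 or BPA replicate 1, 2 or 3. UGT2B10, a glucuronosyltransferase, averaged 47.3 ± 24.5 CPM in BPA and 271 ± 78.3 CPM in DMSO libraries (-2.52 ± 0.36, adjusted p = 7.44e-06). SULT1E1, the estrogen sulfotransferase that opposes STS, was at 0.123 ± 0.0776 CPM in BPA and 0.800 ± 0.371 CPM in DMSO libraries (-2.70 ± 0.60, adjusted p = 0.00106). UGT2B11 and UGT2B7 also fell with BPA, by 2.23 and 1.08 on the log2 scale. With TCDD, UGT2B4 fell by 2.30 (± 0.35, adjusted p = 3.38e-05) and UGT2B11 by 2.44 (± 0.47, adjusted p = 0.000765). SULT2B1 averaged 0.593 ± 0.105 CPM in TCDD libraries, against 0.0599 ± 0.0257 CPM in DMSO libraries. It had 20 to 31 counts in TCDD libraries and 0 to 6 in all others, so its test is not given, since only TCDD brought it past the filter. SULT1A1 rose by 0.92 ± 0.24 with TCDD (adjusted p = 0.0136, or 0.0541 without DMSO replicate 1). UGT2B genes are close copies too, and their counts are uncertain.

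Of 8 steroid receptors and carriers, 4 were tested. TCDD raised 1 of the 4 (25.0%, beside 9.25% of all tested genes), and BPA raised 1 and lowered 2 (75.0%, beside 35.0%). PGR, the progesterone receptor, and ESR2, an estrogen receptor, were at 3 counts or fewer in every library, and ESR1 was so in all groups but TCDD. NR3C1, the glucocorticoid receptor, averaged 46.5 ± 2.95 CPM in TCDD and 36.1 ± 1.88 CPM in BPA, against 17.3 ± 2.06 CPM in DMSO libraries. It rose by 1.42 ± 0.12 with TCDD (adjusted p = 1.59e-09) and by 1.06 ± 0.12 with BPA (adjusted p = 2.24e-07). NR3C2, the mineralocorticoid receptor that HSD11B2 shields from cortisol, fell by 0.87 with BPA (adjusted p = 0.0260, lost without DMSO replicate 3 or BPA replicate 1 or 2), and SERPINA6, the cortisol carrier of plasma, fell by 1.20 with BPA (adjusted p = 0.00941).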

How the data were processed

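Poly(A) RNA of HepG2 cells was sequenced from directional libraries, per the labels' protocols. The deposited values are whole-number read counts, 1 per gene and library. For their making, the submitters' processing notes name GRCh38, fastp, STAR, HTSeq and DESeq2. No version, annotation release or strand option is named in the sources used. The labels describe 4 independent experiments and do not tie replicate numbers to them, so p-values measure the spread between these libraries. The last of 63140 rows, without a line end, was left out. Symbols were at hand for 62541 identifiers; coordinates and exon lengths came from GENCODE 29, which held 58126. Promoter windows are from RefSeq (GRCh38.p14).

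A filter of edgeR (filterByExpr, minimum count 10) kept 18849 genes, which hold 99.957% of counts. TMM factors ran from 0.861 to 1.07. A single edgeR 4.0.16 quasi-likelihood fit (R 4.3.3) of the 28 libraries had 7 group means and 21 residual degrees of freedom, with a common biological coefficient of variation of 22%. SE is the log2 fold change divided by the root of F, and intervals cover 95%. The scripts were tested on simulated counts. A gene was near the floor at a median of 10 counts or fewer; 3 counts is the limit that a count of 0 allows, for counting error only. Likeness is Pearson's r of log2 CPM with a prior count of 2.

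The members and lists were chosen with earlier results of these data known. Named list genes are up to 4 of each list with the smallest p where at least 5 were called over the lists together, otherwise each called gene. FDXR, CYP17A1 and the BPA value of HSDL2 lie outside that rule and were named after their values were seen. Deviations of equally numbered libraries from their group means correlated above 0.1 for every number in all comparisons but TCDD (-0.212 to 0.439), so the numbers pair the libraries there. Alternatives were DESeq2 1.42.0, other scalings, no filter, only the 8 libraries compared, the replicate block, each library left out and, added after seeing the data, H2O in place of DMSO and each library left out for called list genes and TBTCl values. SUMF1 was named after its values were seen.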

Additional observations from a re-analysis of the deposited data

Results flagged for a closer look

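In 4 of 63 sets of 4 libraries (9 genes in 7 groups), a library lay far from the other 3 by Dixon's criterion, and chance alone gives about 5%. HSD17B6 in TBTCl replicate 3 was 2.43 CPM, the highest of its group, and the TBTCl log2 fold change of 0.10 was -0.29 without it. HSD11B2 in CdCl2 replicate 4 was 4.63 CPM, the highest of a tight group. SRD5A1 in CdCl2 replicate 3 was 16.8 CPM, the highest of its group, and the CdCl2 log2 fold change of 0.12 was 0.03 without it. STS in DMSO replicate 4 was 6.97 CPM, the lowest of its group. None of these genes was called in a comparison of a compound with its vehicle that holds the library named.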

How the results depend on the processing

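Of 816 fold changes of the 9 tested genes under the alternatives, 756 kept their direction and their side of the threshold, 10 lost a call (all HSD17B8 with BPA, given above), 2 gained one and 48 changed sign, 42 of these when a library was left out. Every sign change was in a comparison where the gene was not called. The calls of CYP19A1 and HSD17B2 with TCDD and of CYP19A1, HSD17B2 and HSD17B6 with BPA held under every alternative run. With TBTCl, 1 of the 9 genes, HSD17B2, was called without the filter on low counts (0.84, adjusted p = 0.0491) and with the replicate block (0.95, adjusted p = 0.0332); the cause was not tested. The block changed no other call among the 9 genes. HSD11B2 had a log2 fold change of 0.04 with CdCl2 under the block, and with TCDD of -0.03 by library size alone, -0.03 without the filter and 0.00 with only the 8 libraries compared. HSD17B1 with TBTCl was at -0.09 by library size alone and -0.03 without the filter.

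As each library was left out, sign changes came with these ranges of the log2 fold change. With TCDD, HSD11B2 ran from -0.22 to 0.40, SRD5A1 from 0.00 to 0.16 and STS from -0.23 to 0.05. With PFOS, HSD17B2 ran from -0.08 to 0.28, HSD17B6 from -0.02 to 0.46, HSD17B8 from -0.05 to 0.42, HSD11B2 from -0.07 to 0.58, SRD5A1 from -0.07 to 0.06 and STS from -0.02 to 0.21. With BPA, HSD11B2 ran from -0.03 to 0.64. With TBTCl, HSD17B1 ran from -0.13 to 0.14, HSD17B6 from -0.29 to 0.33, SRD5A1 from -0.10 to 0.05 and STS from -0.28 to 0.07. With CdCl2, HSD17B1 ran from -0.07 to 0.33, HSD17B6 from -0.08 to 0.40 and HSD11B2 from -0.24 to 0.15, and for DMSO against H2O HSD17B6 ran from -0.31 to 0.18 and SRD5A1 from -0.05 to 0.08.

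Counts over all tested genes moved more. The replicate block called 28 genes with CdCl2 in place of 4, 84 with PFOS in place of 3, 2722 with TCDD in place of 1743 and 179 with TBTCl in place of 27, while DESeq2 called 15, 109, 2104 and 251. Without the filter 25 genes were called with CdCl2, 78 with PFOS and 111 with TBTCl, and with only the 8 libraries compared 0 with CdCl2 and 1 with TBTCl. Upper-quartile factors called 23 genes with PFOS, library size alone called 9 with TBTCl, and against H2O 0 were called with PFOS and 13 with TBTCl. As each library was left out, 3 to 10 genes were called with CdCl2 (10 without CdCl2 replicate 4), 0 to 2 with PFOS (0 without DMSO replicate 2, PFOS replicate 2 or PFOS replicate 4) and 5 to 160 with TBTCl. The TBTCl count was 5 to 7 without any 1 of the DMSO libraries, and 55, 160, 35 and 9 without TBTCl replicates 1, 2, 3 and 4 in turn. With BPA, 3268 genes rose and 3320 fell, against 2239 and 4345 with upper-quartile factors and 2169 and 4321 by library size alone, which moved the median log2 fold change of all genes to -0.15 and -0.14. Depth limits SRD5A2, and HSD17B6 in BPA libraries rests on 12 to 24 counts each.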

Other observations

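NR5A1, the nuclear receptor that drives steroid-forming genes in adrenal and gonad, was well expressed in HepG2 cells. It averaged 107 ± 15.9 CPM in TCDD, 120.2 ± 12.8 CPM in PFOS, 139 ± 13.8 CPM in BPA and 132 ± 11.6 CPM in TBTCl, against 133 ± 22.7 CPM in DMSO libraries, and 149 ± 17.2 CPM in CdCl2 against 136 ± 15.3 CPM in H2O libraries. No compound passed against its vehicle, and TCDD minus BPA was -0.39 (edgeR, adjusted p = 0.0194). NR5A1 is 1 of 7 markers of steroidogenic, placental or gonadal cells that were examined, with CYP11A1, CYP17A1, STAR, CGA, INSL3 and FOXL2. BPA called 3 of the 4 tested (75.0%, beside 35.0% of all tested genes) and TCDD 1 (25.0%, beside 9.25%). These were CYP11A1, CYP17A1 and STAR with BPA and STAR with TCDD, given above. CGA and FOXL2 stayed at 3 counts or fewer in every library, and INSL3 did so in all CdCl2 and TBTCl libraries but not in the other groups. NR5A1 was picked out here after its values were seen.

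Several of the enzymes moved with the replicate number. HSD11B2 was highest of its group in replicate 4 in 6 of 7 groups and HSD17B8 in 7 of 7, while STS was lowest in replicate 4 in 5 of 7. HSD17B6 and CYP19A1 were each lowest in replicate 1 in 6 of 7 groups. The labels do not say what a replicate number shares across groups.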
